A study of Mus musculus with 2 samples.

Results

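Endothelial and lymphatic genes were examined in ureters labelled Tbx2/Tbx3cDKO and in control ureters. The members were 34 genes of blood and lymph vessel lining cells, taken by name from the gene spots of both arrays. Each gene was read at its brightest probe, by the mean of the processed signals of the 4 RNAs. Of the 34 members, 33 entered the test, out of 23419 genes tested in all. The remaining member, Erg, was well above background in 2 of the 4 RNAs at its brightest probe. Ureters were dissected from NMRI mouse embryos at stage E18.5. The RNA called cDKO here came from embryos with 1 Cre allele at Tbx18 (cre/+) and with both alleles floxed at Tbx2 (fl/fl) and at Tbx3 (fl/fl). Control RNA came from embryos without Cre (Tbx18 +/+) that carried at least 1 floxed allele of Tbx2 and of Tbx3. The Cre allele at Tbx18 thus differs between the genotypes along with the deletion, and the 2 cannot be told apart. Total RNA of both genotypes was hybridized together on each of 2 Agilent 2-colour arrays. Replicate 1 held male RNA with cDKO in AlexaFluor647, and replicate 2 held female RNA with the dyes exchanged. Values given below in males and in females are those of the male and the female array, and sex, dye and replicate number cannot be told apart. The number of embryos behind an RNA is not given in the labels. The p-values rest on spread between these 2 arrays, mostly as pooled over all kept probes (1 residual and 13.9 prior degrees of freedom). They follow a gene's own spread between the arrays only in small part. The Cre allele sits at Tbx18, a gene of the ureteric mesenchyme, and the labels do not say whether endothelial cells carried a deletion.

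Blood vessels are lined by endothelial cells, which are held together by VE-cadherin and claudin junctions. They respond to VEGF through the receptors Kdr, Flt1 and Flt4 and to angiopoietins through Tek. Their identity rests on transcription factors of the ETS, SOXF and TAL1 families, and NOTCH signalling through Dll4 and Notch4 is tied to arterial fate. Lymphatic endothelium is set apart by Prox1, Flt4 and Lyve1. In the ureter these vessels run in the connective tissue around the smooth muscle coat and below the urothelium.

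Of the 43020 gene spots, 72.1% to 81.6% per channel stood well above background. The number of arrays limits the precision. Ureter markers were present in all 4 RNAs. The urothelial list had 8 of 8 genes well above background and 0 called, while 7 of 8 smooth muscle markers fell, with a median log2 ratio of -2.41. The floxed genes were not lower in cDKO RNA, with log2 ratios of 1.04 in males and 0.44 in females for Tbx2 and of 0.78 and 0.55 for Tbx3, and Tbx18 was at 0.81 on both arrays. The labels do not say which exons are lost, so whether these probes check the deletion is not known, and directions below are those of the RNA labelled cDKO. The female RNA labelled cDKO went against its label in Y-linked transcripts but not in Xist. The processed signal of Xist was 1146 in female control and 1212 in female cDKO RNA, and not well above background in male RNA. Ddx3y had a processed signal of 359.6 in the female cDKO RNA, which is 12.6% of that in the male cDKO RNA, and Eif2s3y had 491, which is 9.52%. Both were not well above background in the female control RNA. Values of each array are therefore given for the members and for the called genes named below, while a single ratio for any other gene is the mean of both arrays.

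Of the 33 members tested, 4 were called higher in cDKO ureters and 0 lower (limma, adjusted p under 0.05). Over all genes tested, 2.19% were called higher and 2.26% lower, 4.45% in either direction. The called members were Plvap, Vwf, Eng and Cdh5. Without adjustment, 14 members had p under 0.05 with a higher mean and 0 with a lower mean, against 9.62% and 6.4% of all genes. The log2 ratio was above 0 on both arrays for 24 of the 33 members, as for 31.7% of all genes, and below 0 on both for 1 member, Prox1, as for 28% of all genes. The median log2 ratio of the members was 0.20, with 0.34 in males and 0.20 in females, beside 0.0046 over all genes tested. The mean ratio was above 0 for 27 members and below 0 for 6. Plvap alone was at least 1.5-fold higher on both arrays, a size reached by 1.5% of all genes, and 0 members were at least 1.5-fold lower on both, as 1.72% of genes were. In bulk RNA a change in the number of endothelial cells and a change of RNA per cell cannot be told apart.

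The number of calls changed with the processing. With the processed signals 0 members were called and their median was 0.27. Over all genes, 512 were called higher and 530 lower in the main setting, against 135 and 210 with the processed signals, with higher genes making up 49.1% and 39.1% of the calls. Under median centring, without loess, 1 member was called, Plvap, and the members' median was 0.40 beside 0.066 over all genes. By array, that median of the members was 0.75 in males and 0.15 in females.

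**Figure D1:**
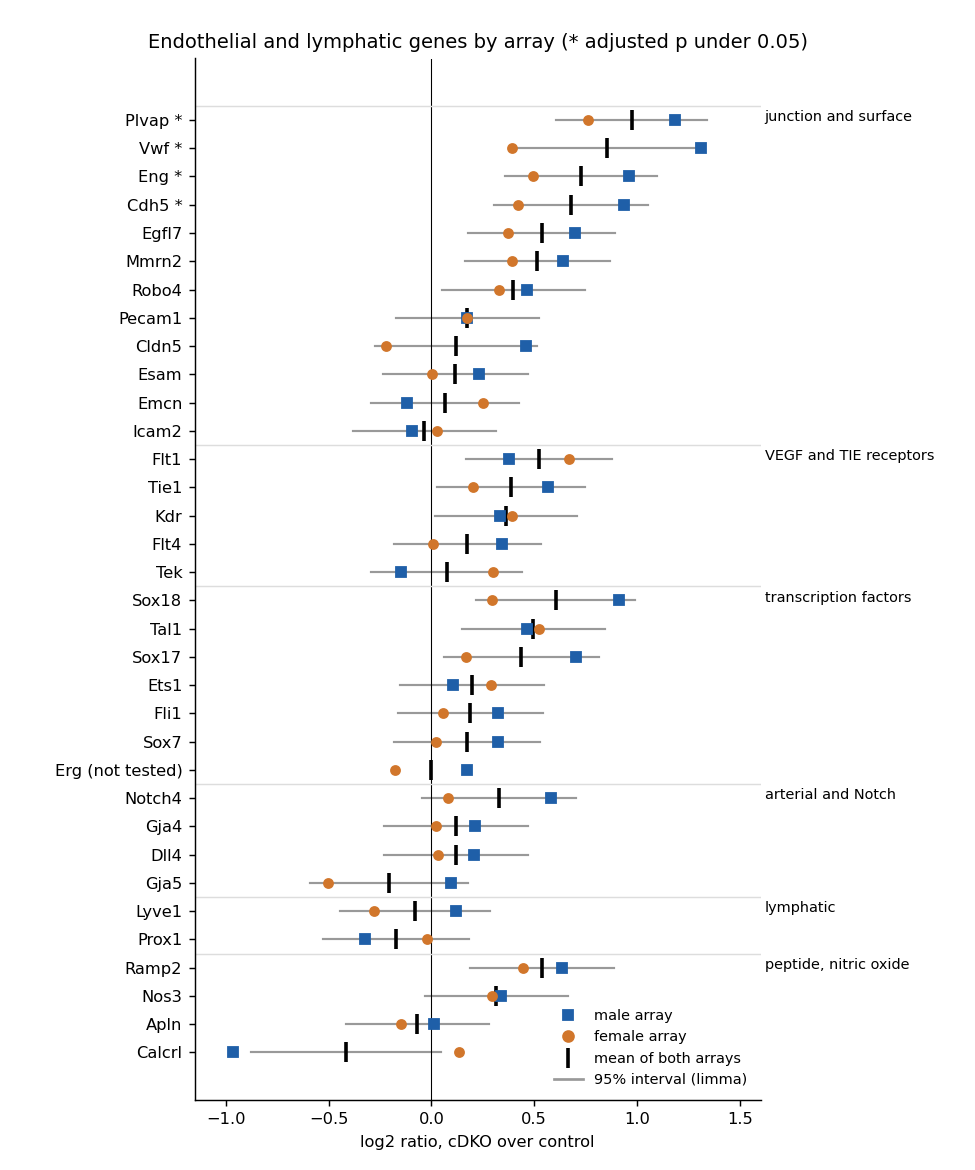
Log2 ratio of cDKO over control (x axis) for each of the 34 members, grouped by role. Squares are the male array, circles the female array, black ticks their mean and grey bars limma's 95% interval, and stars mark adjusted p under 0.05. The 4 called genes stand at 0.68 to 0.97, while Icam2, Emcn, Esam, Cldn5 and Pecam1 lie between -0.035 and 0.17.

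Among the 12 genes of junctions, the cell surface and secreted or matrix proteins, 4 rose, 8 were not called, and the median was 0.46. Plvap encodes the protein of the diaphragms that span fenestrae and caveolae of endothelium. Its processed signal was 2274 in control and 5532 in cDKO RNA of males, and 2002 and 3323 in females. Each cDKO RNA thus lay above both control RNAs. The share of all genes that separate in this way was not counted. Signals set across arrays also include differences between the arrays and dyes. The summed control signal of all members was 135617 in males and 105947 in females. Separation or overlap of signals, here and for genes below, is thus a description and not a test. The log2 ratio of Plvap was 1.18 in males and 0.76 in females, a mean of 0.97 ± 0.30 (SD, n = 2), or 1.96-fold (adjusted p = 0.00286). The probe lies on chromosome 8, 74021877 to 74021936 (mm9). The dimmer Plvap probe on chromosome 8, 74030739 to 74030798, gave a different reading. It stood at 844 and 920.5 in male control and cDKO RNA and at 622 and 635 in the female ones, a mean log2 ratio of 0.062 (adjusted p = 0.929). The rise of Plvap was thus seen at its brighter probe, and the mean of both probes had a log2 ratio of 0.52 and an adjusted p of 0.0819. Why the probes differ was not tested.

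Vwf encodes von Willebrand factor, the clotting protein stored in endothelial granules and in platelets. Its signal was 884 in control and 2306 in cDKO RNA of males, and 764 and 1025 in females. Both cDKO RNAs exceeded both controls, but the ratio on the male array was far larger, 1.31 against 0.39 log2. The mean was 0.85 ± 0.65 (SD, n = 2), or 1.81-fold (adjusted p = 0.0228). Eng encodes endoglin, a coreceptor for BMP9 and TGF-beta. Its signal was 1727 in control and 3390 in cDKO RNA of males, and 1317 and 1895 in females, so that the cDKO RNAs lay above both controls. The log2 ratios were 0.96 and 0.49, with a mean of 0.73 ± 0.33 (SD, n = 2), or 1.66-fold (adjusted p = 0.0241). Cdh5 encodes VE-cadherin, the adhesion molecule of endothelial junctions. Its signal was 5087 in control and 9705 in cDKO RNA of males, and 4265 and 5653 in females, again without overlap. The log2 ratios were 0.94 and 0.42, with a mean of 0.68 ± 0.37 (SD, n = 2), or 1.6-fold (adjusted p = 0.0391).

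The calls of Vwf, Eng and Cdh5 did not hold with the processed signals (adjusted p of 0.287, 0.226 and 0.305), under median centring (0.131, 0.258 and 0.357), without a filter on dim probes (0.0795, 0.0506 and 0.0763) and in the deposited value table (0.491, 0.434 and 0.476). That of Plvap did not hold with the processed signals (adjusted p of 0.132) and in the deposited value table (0.380), besides the settings that use its other probe. Cdh5 also lost its call with offset 0 (0.0733). Of all genes, 0 were called from the deposited values, whose ratios for the called members equal those of the processed signals. A call lost there was thus shared by every called gene and is not a separate check. Over the alternatives that use both arrays, the log2 ratio stayed between 0.67 and 0.87 for Cdh5, 0.73 and 0.93 for Eng, and 0.85 and 1.03 for Vwf. Other filters, an intensity trend and robust eBayes reuse the main ratios, so the ratio could not move there.

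**Figure D2:**
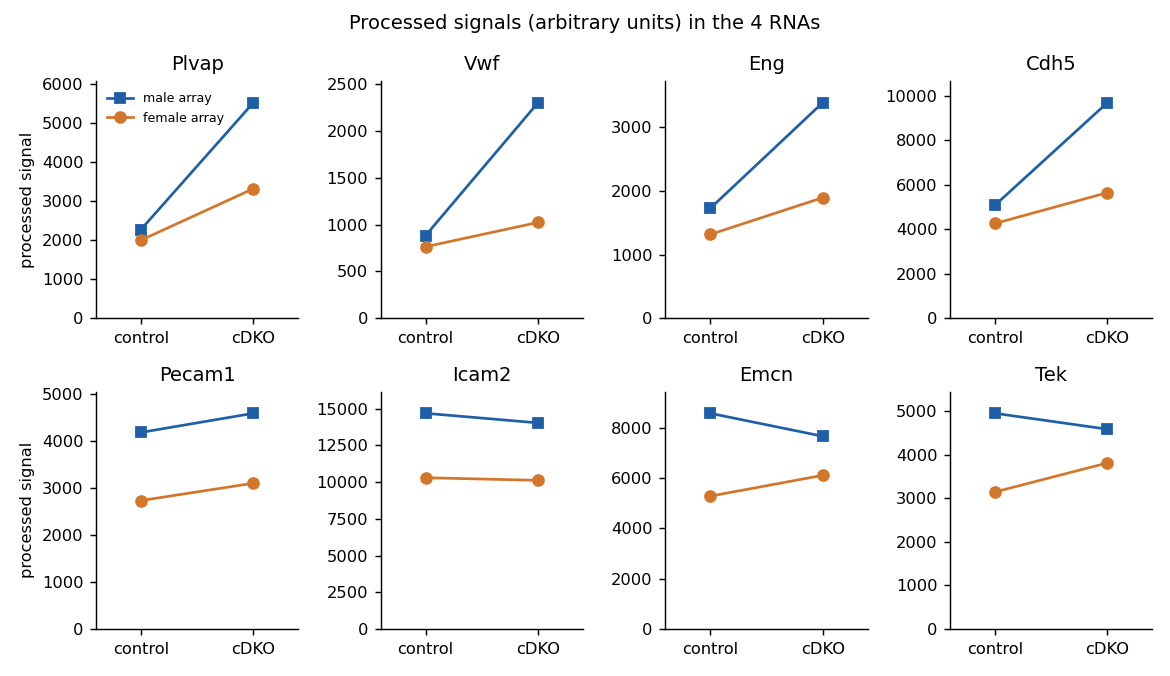
Processed signal (y axis, arbitrary units from 0, own scale per gene) in control and cDKO RNA of the male array (squares) and the female array (circles). The upper 4 genes were called higher. In the lower 4, Pecam1 was slightly higher in both cDKO RNAs, Icam2 lay close to its control, and Emcn and Tek changed in opposite directions on the arrays.

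Other pan-endothelial markers had means closer to 0 and were not called. Pecam1, the CD31 adhesion molecule, had signals of 4188 in control and 4596 in cDKO RNA of males and of 2736 and 3105 in females. Its log2 ratio was 0.17 on each array, with a 95% interval of the mean from -0.17 to 0.52 (adjusted p = 0.705). Icam2, an adhesion molecule for leukocytes, had signals of 14690 and 14037 in males and of 10299 and 10122 in females, a mean log2 ratio of -0.035 with an interval from -0.38 to 0.31, and of 0.10 under median centring. Emcn, a sialomucin of capillaries and veins, was at -0.12 and 0.25 in males and females. Cldn5, the claudin of endothelial tight junctions, was at 0.46 and -0.22, and Esam, a junctional adhesion molecule, at 0.23 and 0.0011.

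Egfl7, Mmrn2 and Robo4 were above 0 on both arrays without passing the test. Egfl7, a secreted factor of endothelial cells, was at 0.70 in males and 0.37 in females, a mean log2 ratio of 0.54 ± 0.23 (SD, n = 2; adjusted p = 0.101). Mmrn2, a matrix protein that coats vessels, was at 0.64 and 0.39 (mean 0.52, adjusted p = 0.112), and Robo4, an endothelial roundabout receptor, at 0.47 and 0.33 (mean 0.40, adjusted p = 0.239). With an intensity trend in eBayes, Egfl7 and Mmrn2 were called (adjusted p of 0.0181 and 0.0379).

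Of the 5 VEGF and TIE receptors, 0 passed the test and 3 had an unadjusted p under 0.05. Flt1, the VEGF receptor that also acts as a decoy, had signals of 3554 in control and 4596 in cDKO RNA of males and of 1987 and 3174 in females. Its log2 ratio was 0.38 in males and 0.67 in females, a mean of 0.52 ± 0.21 (SD, n = 2; adjusted p = 0.110). Female cDKO RNA stayed below the male control signal, so the groups overlap across arrays although each ratio is above 0. Kdr, the main signalling receptor for VEGF, was at 0.33 and 0.39 in males and females (mean 0.36, adjusted p = 0.295), and its dimmer probe at 0.24 and 0.15. Tie1, an orphan partner of Tek, was at 0.57 and 0.20 (mean 0.38, adjusted p = 0.281). Tek, the angiopoietin receptor, was at -0.15 and 0.30, with a mean of 0.074 and an interval from -0.29 to 0.44. Flt4, the VEGFC receptor of lymphatic vessels, was dim, with signals from 26.7 to 56.3, and had log2 ratios of 0.34 and 0.0088.

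Sequences before the start site are shown for 4 members: Eng, the called member with an entry in the promoter table, Flt1, the receptor with the largest ratio, and Emcn and Tek, whose means were near 0. Each is the 250 bases before the start of the gene, 5′ to 3′ on the gene's strand, from RefSeq on GRCm38.p6. The positions are chr2:32646345-32646594 (plus strand) for Eng, chr5:147726012-147726261 (minus strand) for Flt1, chr3:137340828-137341077 (plus strand) for Emcn and chr4:94739039-94739288 (plus strand) for Tek. Capitals mark the ETS words AGGAAG or CGGAAG on either strand.
Eng: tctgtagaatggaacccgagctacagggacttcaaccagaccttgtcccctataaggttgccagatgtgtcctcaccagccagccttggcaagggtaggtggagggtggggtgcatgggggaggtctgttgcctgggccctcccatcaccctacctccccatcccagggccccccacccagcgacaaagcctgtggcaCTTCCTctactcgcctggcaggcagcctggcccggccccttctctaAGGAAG
Flt1: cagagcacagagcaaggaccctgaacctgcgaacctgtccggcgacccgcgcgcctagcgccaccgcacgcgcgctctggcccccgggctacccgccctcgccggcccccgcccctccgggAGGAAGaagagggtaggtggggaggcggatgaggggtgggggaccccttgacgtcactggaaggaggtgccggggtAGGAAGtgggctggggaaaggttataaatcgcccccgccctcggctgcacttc
Emcn: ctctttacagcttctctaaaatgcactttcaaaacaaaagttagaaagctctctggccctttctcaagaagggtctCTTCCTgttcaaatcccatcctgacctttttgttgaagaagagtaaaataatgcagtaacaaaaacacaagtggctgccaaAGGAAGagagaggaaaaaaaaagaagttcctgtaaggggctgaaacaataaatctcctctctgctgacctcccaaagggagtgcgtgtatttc
Tek: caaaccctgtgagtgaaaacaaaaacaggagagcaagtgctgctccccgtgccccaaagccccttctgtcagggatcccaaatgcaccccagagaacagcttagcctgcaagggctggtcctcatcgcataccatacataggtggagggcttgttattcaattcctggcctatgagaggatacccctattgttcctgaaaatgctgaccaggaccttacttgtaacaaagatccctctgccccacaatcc

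In these windows Eng held 2 ETS words, the nearer of which ended at position -1 before the start, Flt1 held 2, Emcn held 2 and Tek held 0. Eng and Emcn had the same number of words with mean log2 ratios of 0.73 and 0.065. Of the 34 members, 19 had an entry, with 25 promoters. Of these, 12 (48%) held an ETS word, beside 39.2% of all 32851 promoters of that length that were searched. The promoters searched did not cover every chromosome. The SOX words ACAATG or ACAAAG, searched on both strands, were in 9 of the 25 (36%), beside 25.2% of all. The GATA words AGATAA or TGATAA or AGATAG or TGATAG were in 5 (20%), beside 26.5% of all. A word is a run of letters and not a bound site, and no binding was measured. Overlaps between words were not removed. Members without an entry were Cdh5, Ets1, Esam, Fli1, Icam2, Lyve1, Mmrn2, Nos3, Pecam1, Plvap, Ramp2, Sox7, Sox17, Sox18 and Vwf.

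Among the 7 transcription factors, 6 were tested, 0 were called, and all 6 were above 0 on both arrays, with a median of 0.32. Sox18, a SOXF factor of blood and lymph vessels, had signals of 4159 in control and 7755 in cDKO RNA of males and of 3854 and 4691 in females. Both cDKO RNAs lay above both controls, with log2 ratios of 0.91 and 0.29 and a mean of 0.60 ± 0.44 (SD, n = 2; adjusted p = 0.0842). It was called with a filter on both channels (adjusted p = 0.0486) and with an intensity trend (0.0122). Its relative Sox17, known from arteries, was at 0.70 and 0.17 (mean 0.44, adjusted p = 0.229), and a further probe gave 0.89 and 0.19. Sox7, the third of the family, was at 0.32 and 0.023. Tal1, a factor of endothelial and blood cell precursors, was at 0.46 and 0.52 (mean 0.49 ± 0.043, SD, n = 2; adjusted p = 0.122). Of the ETS factors, Ets1 was at 0.10 and 0.29 with signals of 6679 and 6957 in males and of 4057 and 4965 in females. Fli1 was at 0.32 and 0.058. Erg was at 0.17 and -0.18 with signals from 9.42 to 68.3, and its second probe, with signals from 26.4 to 41.3, had a mean of 0.12 (adjusted p = 0.830).

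Of the 4 arterial and NOTCH genes 0 were called, 0 had an unadjusted p under 0.05, and the median was 0.12. Notch4, the endothelial NOTCH receptor, was at 0.58 in males and 0.078 in females (adjusted p = 0.402). Dll4, its arterial ligand, was at 0.20 and 0.030, and Gja4, the gap junction protein connexin 37 of arteries, at 0.21 and 0.024. Gja5, the arterial connexin 40, had signals of 2534 in control and 2735 in cDKO RNA of males but of 2071 and 1444 in females. Its log2 ratios were thus 0.094 and -0.50 (adjusted p = 0.679), and a second, dim probe gave 0.043 and -0.44. The intervals of the 4 means reached from -0.59 to 0.70.

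The 2 members grouped as lymphatic, Lyve1 and Prox1, were not called, and their mean ratios were below 0. Flt4, also a lymphatic marker but grouped above with the receptors, was dim and had a mean above 0, at 0.17. Lyve1, a hyaluronan receptor of lymphatic endothelium and of some macrophages, had signals of 6162 in control and 6567 in cDKO RNA of males and of 5970 and 4834 in females. The log2 ratios were 0.12 and -0.28 (mean -0.079, adjusted p = 0.909), and the mean was 0.10 under median centring. Prox1, the master factor of lymphatic identity, was dim, with signals of 50.7 and 26.7 in males and of 37.0 and 37.7 in females. Its log2 ratios were -0.32 and -0.024, with a mean of -0.17 and an interval from -0.53 to 0.18.

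A list of 10 further genes known from lymphatic endothelium or its development held 2 called higher and 2 called lower, with a median of -0.28. Ccl21a, a chemokine that lymphatic vessels release, had signals of 2497 in control and 1051 in cDKO RNA of males and of 3333 and 1464 in females. Its log2 ratios were -1.22 and -1.16 (mean -1.19, SD 0.047, n = 2; adjusted p = 0.000292), and each cDKO signal lay below both controls. Near-identical Ccl21 copies can share that probe, so its identity is uncertain. Fgl2, a prothrombinase of endothelial cells and macrophages, fell, with log2 ratios of -0.75 and -0.87 (mean -0.81, adjusted p = 0.00782). Reln, which lymphatic endothelium secretes, was at -0.39 and -0.82 (adjusted p = 0.0650) and Mmrn1, a lymphatic multimerin, at -0.45 and -0.71 (adjusted p = 0.0674). Foxc2, a factor of lymphatic valves and of mesenchyme, rose by 1.405 and 0.70 (mean 1.05, adjusted p = 0.00293), and Nr2f2, a factor of veins, lymph vessels and mesenchyme, by 0.64 and 0.77 (mean 0.71, adjusted p = 0.0196). Not called were Stab2 at 0.45, Ccbe1 at 0.34, Pdpn at -0.17 and Itga9 at -0.40. With the processed signals Foxc2, Nr2f2 and Fgl2 lost their calls, under median centring Nr2f2, Fgl2 and Ccl21a did, and in the deposited value table all 4 did.

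The peptide and nitric oxide genes had 0 of 4 called, a median of 0.12 and ratios of both signs. Ramp2 makes the receptor Calcrl a receptor for adrenomedullin, a peptide needed for vessel growth and integrity. Its signal was 19847 in control and 32292 in cDKO RNA of males and 16684 and 22804 in females, so that both cDKO RNAs lay above both controls. The log2 ratios were 0.63 and 0.45, with a mean of 0.54 ± 0.13 (SD, n = 2; adjusted p = 0.0888), and the gene was called with an intensity trend (0.0138). Calcrl itself had signals of 555.3 in control and 242.5 in cDKO RNA of males, but of 213.8 and 239 in females. Its log2 ratios were -0.96 and 0.13 (mean -0.42 ± 0.78, SD, n = 2; adjusted p = 0.386), the widest spread of the 33 members. Nos3, the endothelial nitric oxide synthase, was at 0.34 and 0.29 (mean 0.32, adjusted p = 0.381), and its second probe at 0.27 and 0.26. Apln, a peptide of sprouting endothelial cells, was at 0.014 and -0.15, with a mean of -0.068 that was 0.12 under median centring.

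**Figure D3:**
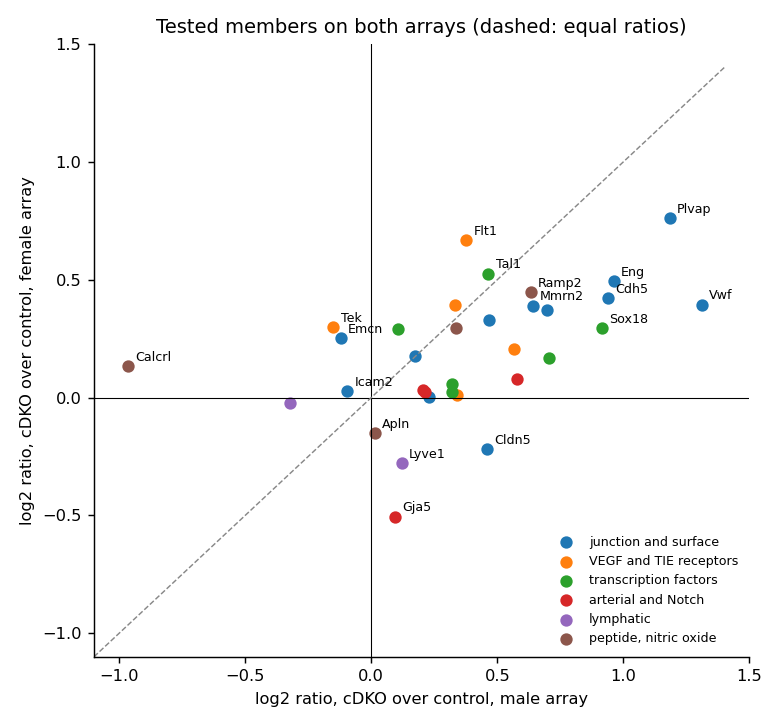
Log2 ratio of cDKO over control on the male array (x axis) against the female array (y axis) for the 33 members tested, coloured by role. Points below the dashed line had the larger ratio on the male array, which holds for 23 of 33, with Vwf, Sox18 and Cldn5 among those farthest below it and Calcrl farthest above.

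The male array gave the larger ratio for 23 of the 33 members and for 53.9% of all genes. Across members, which are not independent of each other, the male and female ratios correlated with a Pearson r of 0.488 (n = 33 genes on the same 2 arrays), beside 0.487 over all genes. The sign differed between arrays for 8 members (24.2%), as for 40.25% of all genes. The summed processed signal of the 34 members was 1.33 times as high in cDKO as in control RNA of males and 1.175 times in that of females. Such a sum follows the bright genes most. The brightest, Ramp2, was not called and rose from 19847 to 32292 in males and from 16684 to 22804 in females. The ratio of sums over all genes is not given. Of the 7 members with a second probe, Plvap was the only gene with a call on one probe and none on the other. Members that lie within 500 kb of each other were Pecam1 and Icam2 on chromosome 11, Esam and Robo4 on chromosome 9, and Fli1 and Ets1 on chromosome 9. Their mean log2 ratios were 0.17 and -0.035, 0.12 and 0.40, and 0.19 and 0.20.

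Ligands, partner receptors and targets of these pathways were taken from a list of 31 genes, of which 28 were tested. Of these, 4 were higher and 1 lower, with a median log2 ratio of 0.30. Ephb4, the venous receptor for ephrin-B2, had signals of 3334 in control and 8375 in cDKO RNA of males and of 3456 and 5301 in females. It rose by 1.25 and 0.64 log2 units (mean 0.94 ± 0.43, SD, n = 2; adjusted p = 0.00535), and both cDKO RNAs lay above both controls. Its ligand gene Efnb2, known from arteries, was at 0.13 (adjusted p = 0.808). Slit2, a ligand of roundabout receptors, rose by 0.91 and 0.93 (mean 0.92, adjusted p = 0.00283). Smad6, an inhibitory SMAD, rose by 1.01 and 0.58 (mean 0.80, adjusted p = 0.0119) and Hey2, a NOTCH target, by 0.50 and 0.93 (mean 0.72, adjusted p = 0.0249). These 4 calls were lost with the processed signals, under median centring and in the deposited value table. Slit3, at 0.64, missed the threshold (adjusted p = 0.0500038).

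Ramp1 was the called gene of that list that fell. Its product makes Calcrl a receptor for the peptide CGRP. Signals were 2518 in control and 982 in cDKO RNA of males and 1929 and 573 in females, with log2 ratios of -1.398 and -1.66 (mean -1.53 ± 0.19, SD, n = 2; adjusted p = 2.74e-05). Both cDKO RNAs lay below both controls. The mean of its kept probes gave -0.78 (adjusted p = 0.00697), so the reading depends on the probe. Values of its other kept probes are not given, so whether each of them fell is not known. The call was lost in the deposited value table (adjusted p = 0.223). Ramp3, the remaining partner, was at 0.58 (adjusted p = 0.0595) and the ligand Adm at -0.25 (adjusted p = 0.531).

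Growth factor ligands of the endothelium were not called. Vegfa had signals of 15488 in control and 11697 in cDKO RNA of males and of 9723 and 9321 in females, with log2 ratios of -0.42 and -0.046 (adjusted p = 0.583). Vegfb was at 0.077, Vegfc at 0.40, the VEGFD gene Figf at -0.013 and Pgf at 0.28. The angiopoietins Angpt1, Angpt2 and Angpt4 were at 0.40, 0.43 and 0.36, with 0.015 for Angpt1 in males and 0.79 in females. The apelin receptor Aplnr was at 0.60 (adjusted p = 0.0620) and the lipid receptor S1pr1 at 0.61 (adjusted p = 0.0695). Dll1 was at 0.57 (adjusted p = 0.0699), Acvrl1, a BMP9 receptor, at 0.32, Jag2 at 0.27, Hey1 at 0.28, Jag1 at -0.18 and Notch1 at -0.025. The coreceptors Nrp1 and Nrp2 were at 0.15 and -0.30, and Ptprb, a phosphatase that restrains Tek, at 0.19. Not tested were Adm2 and Gdf2, which were too dim, and Apela, which had no match.

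A further list of 28 endothelial genes, all tested, held 0 genes called higher and 1 lower, with a median of 0.14. The called gene was Cav1, the caveolin of endothelium and smooth muscle, which fell, with log2 ratios of -1.28 and -0.96 (mean -1.12 ± 0.23, SD, n = 2; adjusted p = 0.000719). Its signal was 73174 in control and 29078 in cDKO RNA of males and 42300 and 23092 in females, so each cDKO signal lay below both controls. The call was lost with the processed signals, under median centring and in the deposited value table. Clec14a, an endothelial lectin, was nearest to a call above 0, at 0.60 ± 0.055 (adjusted p = 0.0531). Cd34 was at 0.46, Gata2 at 0.50, Tspan18 at 0.54 and Cd93 at 0.32. The tip cell gene Esm1, the capillary gene Fabp4 and Ecscr were at -0.33, -0.34 and -0.36, and Gpihbp1 was at 0.0071.

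**Figure D4:**
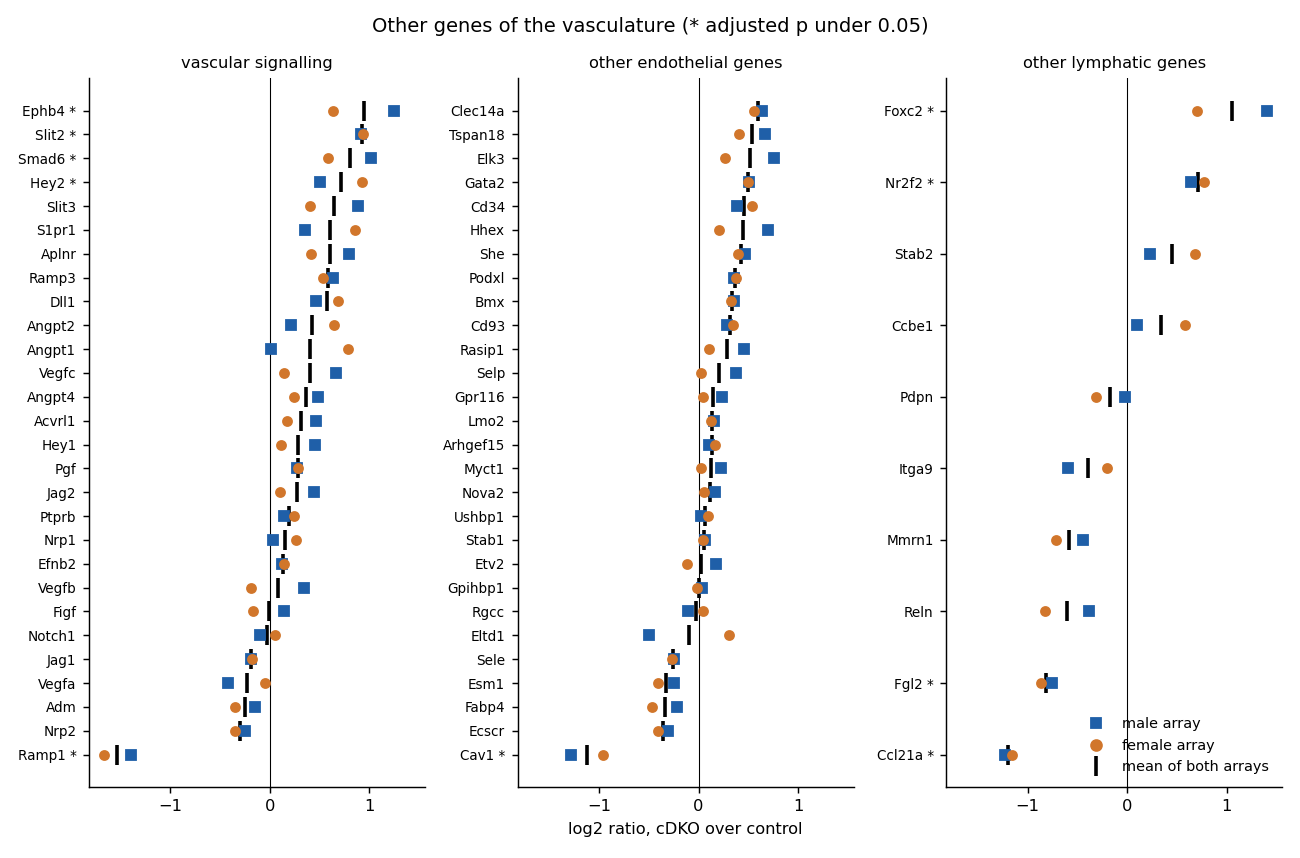
Log2 ratio of cDKO over control (x axis) for the tested genes of 3 further lists, with squares for the male array, circles for the female array and ticks for the mean. Stars mark adjusted p under 0.05. Ephb4, Slit2, Smad6, Hey2, Foxc2 and Nr2f2 were called higher, and Ramp1, Cav1, Fgl2 and Ccl21a lower.

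Markers of other cells moved in the same RNAs, and their part in the endothelial values was not tested. Of 11 kidney genes tested, 9 were higher, with a median of 1.25 (1.73 in males and 1.09 in females). The largest means were those of Cdh16, at 3.52 in males and 1.37 in females, Lhx1, at 2.16 and 1.97, and Six2, at 2.02 and 1.71. Cdh16 was not called with the processed signals (adjusted p = 0.149) or robust eBayes (0.614). The summed kidney signal over 14 genes was 4002 and 4637 in control and 12329 and 6824 in cDKO RNA of the male and female array. A short list of genes known from glomerular endothelium had 1 of 6 higher, Sost at 0.69 and 0.87, and a median of 0.34. Sost was not called under median centring (adjusted p = 0.7065), and the list had sums of 11942 and 9489 in control and 15789 and 11996 in cDKO RNA. Of 10 fibroblast genes 7 were higher, among them Col1a1 at 1.87 and 0.67, Col1a2 at 1.45 and 0.99 and Fbln2 at 1.18 and 0.88, with a median of 0.81 and sums of 304353 and 282445 against 633120 and 530953. With the processed signals Col1a1 and Fbln2 were not called (adjusted p of 0.156 and 0.0741), nor was Col1a1 with robust eBayes (0.154) or Fbln2 under median centring (0.120). From the deposited values limma called 0 genes of any list, while 2436 genes had an unadjusted p under 0.05.

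Pericytes, the mural cells of capillaries, had 1 of 10 markers called, Higd1b, at -0.64 and -1.05, and a median of 0.32. That call did not hold with the processed signals (adjusted p = 0.174) or under median centring (0.803). Sums were 58018 and 43924 in control and 70160 and 47619 in cDKO RNA. Pdgfrb was at 0.63 and Rgs5 at -0.41 (adjusted p of 0.0535 and 0.250). Red cell genes had 1 of 13 higher, Slc4a1 at 0.63 and 0.60, and a median of 0.38. Slc4a1 kept its call in 3 of 9 alternatives, with adjusted p from 0.0267 to 0.735. The red cell sums were 125694 and 123612 in control and 212003 and 171843 in cDKO RNA. Platelet genes, which share Vwf with endothelium, had 1 of 8 tested higher, Ppbp at 0.91 and 0.50, and a median of 0.25. Ppbp was not called with the processed signals (adjusted p = 0.203), under median centring (0.729) or without a filter (0.0503). Their sums were 25334 and 21604 in control and 30929 and 20367 in cDKO RNA, and Gp5 was not well above background in any RNA. Pf4 alone gave 24852 and 21144 of these in control and 30071 and 19794 in cDKO RNA, with a log2 ratio of 0.077. The sums thus say little about the other platelet genes. Macrophage and leukocyte genes, which share Lyve1, had 0 of 15 called and a median of -0.16. Their sums were 62203 and 51505 in control and 57597 and 42164 in cDKO RNA.

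**Figure D5:**
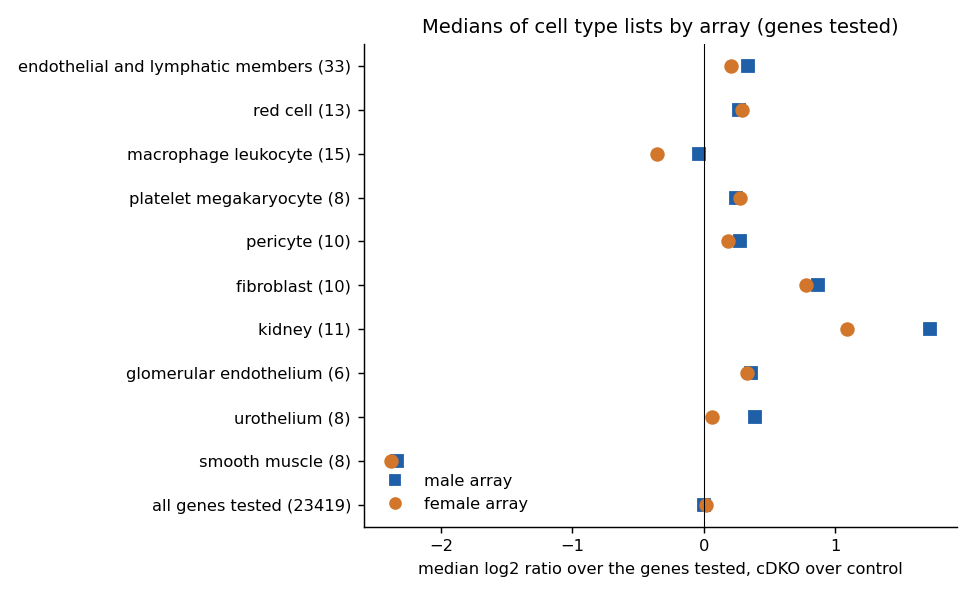
Median log2 ratio of cDKO over control (x axis) over the tested genes of each list, with their number in brackets, for the male array (squares) and the female array (circles). The endothelial and lymphatic members stand at 0.34 and 0.20, kidney markers at 1.73 and 1.09, fibroblast markers at 0.87 and 0.78, and smooth muscle markers at -2.34 and -2.38.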

How the data were processed

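The 2-colour arrays were read with Agilent Feature Extraction 10.7.3.1, per the submitters' processing notes. The deposited mean, background and processed signals are intensities, and the deposited log10 ratio is red over green, per the file headers. Probe coordinates are on mm9, per the file headers. The values of the deposited table are a score, on a scale the labels do not state. It equalled the signed fold of the processed signals, cDKO over control, within 0.001 log2 for 100% of the 24807 male and 23920 female gene spots with both signals over 100, and its median was 1 on both arrays.

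Background was corrected on mean intensities by normexp (offset 50), followed by loess within each array in limma 3.58.1 (R 4.3.3), with control and outlier spots at weight 0. Spots of a probe were averaged. Probes well above background in cDKO RNA on both arrays or in control RNA on both arrays were kept, which left 29274 of 39429. The mean log2 ratio of cDKO over control was tested against 0 with limma (eBayes, two-sided, Benjamini-Hochberg over the kept probes, threshold 0.05), with 1 residual and 13.9 prior degrees of freedom. The fit was tested on simulated ratios of 29274 probes, with noise drawn from the fitted variances. All 100 probes changed 2-fold and all 100 changed 4-fold were called, and 41 unchanged probes were called falsely. Other genes were read at their brightest kept probe. Symbols came from the file and, for 26412 probes, from RefSeq (GRCm38.p6) by accession.

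Named were all members, the called genes of the 3 vascular lists, other genes of those lists as values, up to 3 called genes of each cell type list, and Tbx2, Tbx3 and Tbx18. Pdgfrb, Rgs5, the sex genes and the uncalled genes of the vascular lists were named after their values were seen. Members and lists were chosen with earlier results of these data known. The alternatives were processed signals, offset 0, median centring, other filters, an intensity trend, the value table as deposited, averaged probes, robust eBayes, other folds and each array alone. Slide and scan cannot be fitted as blocks with 2 arrays.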

Additional observations from a re-analysis of the deposited data

Results flagged for a closer look

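The arrays gave opposite signs for 8 of the 33 tested members. Each sex was measured on 1 array, with the dyes exchanged, and the differences between the arrays were not tested. Calcrl had the largest gap, with a log2 ratio of -0.96 in males and 0.13 in females. Cldn5 was at 0.46 and -0.22, and Gja5 at 0.094 and -0.50. Tek was at -0.15 and 0.30, Emcn at -0.12 and 0.25, and Lyve1 at 0.12 and -0.28, in the same order. The gaps of Apln, at 0.014 and -0.15, and of Icam2, at -0.095 and 0.026, were the smallest.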

How the results depend on the processing

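The count of members called lower was 0 in every alternative with a test. The count called higher, 4 in the main setting, was 0 with the processed signals and in the deposited value table, 1 under median centring and without a filter, and 9 with an intensity trend. The members' median log2 ratio was 0.40 under median centring (0.75 in males and 0.15 in females) and 0.20 to 0.34 with 1 array left out. Members at least 1.5-fold higher on both arrays numbered 2 under median centring and 0 with the mean of a gene's probes or with the other probe, an alternative added after the data were seen. On the array left when either was left out, 2 to 9 were 1.5-fold higher and 0 to 1 lower. At 2-fold and 1.2-fold, 0 and 13 were higher on both. The shares of all genes are not given for these folds or for 1 array alone. They are also not given for an intensity trend, other filters, averaged or other probes, or robust eBayes. Counts in those settings thus cannot be set against a general rate. Vascular signalling genes called higher numbered 0 with the processed signals, median centring and the value table, 9 with the filter on both channels, 8 with the mean of probes, 7 with a trend and 9 with robust eBayes, and those called lower 0 with the value table. Other endothelial genes called lower numbered 0 with the processed signals, median centring and the value table, and those called higher 1 with the filter on both channels, 5 with a trend and 1 with robust eBayes. Lymphatic genes called higher numbered 0 with the processed signals, 1 under median centring and 0 with the value table, and those called lower 1, 0 and 0, with 4 under the filter on both channels, the mean of probes and robust eBayes. Over all genes 163 were called higher and 157 lower under median centring, and 0 and 0 in the value table, where 2436 had an unadjusted p under 0.05. Among 303 values of members under the alternatives that use both arrays 3 changed sign, Icam2, Lyve1 and Apln under median centring. Many of the 303 could not change sign. Other filters, an intensity trend and robust eBayes reuse the main ratios, as does the mean of probes for members with 1 probe. The deposited values nearly repeat the processed signals. The small number of sign changes is thus no measure of stability. With 1 array left out 8 members changed sign, Cldn5, Icam2 and Calcrl without the male array and Emcn, Tek, Gja5, Lyve1 and Apln without the female array, and 0 of these were called. The causes were not tested. The main test was itself paired, because each ratio pairs the RNAs of 1 array, and no further pairing was possible.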
